A study of Homo sapiens with 6 samples.

Results

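The Mediator complex was examined through the genes of its subunits in ARPE-19 cells, a human line derived from the pigment epithelium of the retina. Members were the rows of the deposited gene table named MED with a number, with or without a final L, together with CDK8, CDK19 and CCNC, and annotated with a protein-coding transcript. This gave 33 genes of 60612 in the table. The members were chosen by name, but the set itself was selected on the FPKM of 1 subunit, MED29, which was high in part of the treated libraries. The values of MED29 are therefore a description without a test. The same contrast in the other members is read only beside all genes and supports nothing about the set. The study compared cells transfected with miR-204-5p (3 libraries), a microRNA abundant in the pigment epithelium, with cells given the control miR-NC (3 libraries). Both groups were the same line without any other label for genotype, drug, dose or time. The design text calls the replicates biological. Nothing says whether they came from separate cultures, so a p-value measures the spread between these libraries.

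Mediator is the bridge between transcription factors bound to enhancers and RNA polymerase II at the promoter. Its head and middle modules contact the polymerase, its tail takes up most contacts with transcription factors, and MED14 runs through the complex as a backbone. A separable kinase module of CDK8 or CDK19, cyclin C (CCNC), MED12 and MED13, or their paralogs, binds the core reversibly and keeps the polymerase from joining it. MED27 to MED30 are counted with the tail here, after structures of the mammalian complex, while older schemes placed several of them in the head.

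MicroRNAs lower transcripts mainly through sites in the 3' UTR that pair with the seed, bases 2 to 8. The mature miR-204-5p and the seed matches in the members are shown because the transfected agent acts through this pairing. The microRNA is printed as RefSeq gives it (GRCh38.p14, chr9:70810031-70810052, minus strand), with the seed in capitals.
hsa-miR-204-5p: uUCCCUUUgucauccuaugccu
The following lines give the site and its flanks in the longest annotated 3' UTR (GENCODE 29, GRCh38) for each tested member with an 8mer (AAAGGGAA) or a 7mer-m8 (AAAGGGA), written as DNA of the sense strand, with the matched bases in capitals.
MED29, 8mer, chr19:39397736-39397765, plus strand: gggtggtgtgcAAAGGGAAtgaagagcgtc
MED22, 8mer, chr9:133341802-133341831, minus strand: caggagtggagAAAGGGAAaggcaggtctg
CDK19, 7mer-m8, chr6:110610948-110610976, minus strand: cttaagaatggAAAGGGAtgacatttacc
MED12, 7mer-m8, chrX:71142437-71142454, plus strand: agcttctttgcAAAGGGA
MED17, 7mer-m8, chr11:93814822-93814850, plus strand: accatcaaatcAAAGGGAtaacctgatta

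The 8mer of MED29 starts at base 48 of a 3' UTR of 2938 bases. MED29 also holds a 7mer-A1 (AAGGGAA) and a 6mer (AAGGGA) that overlap each other at bases 564 and 569. The match in MED12 ends with the annotated transcript itself. Of the 31 members tested, 5 held an 8mer or 7mer-m8 (16.1%), against 18.7% of the 10832 genes tested that have a 3' UTR. A site of any class was found in 14 members (45.2%), against 39.8% of all those genes. The sites were thus about as frequent in Mediator genes as elsewhere. MED13L, which was too low to be tested, held 4 matches of the 7mer-m8 class.

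Values are FPKM as the authors deposited them, that is, fragments relative to the transcript's length and to all mapped fragments. The libraries were estimated at roughly 19000000 to 23400000 read pairs each, from the most frequent product of FPKM and transcript length. The leading principal component (54.1% of the variance) did not separate the groups. The library of miR-204-5p replicate 3 stood apart in RNA without a poly(A) tail: RN7SK, which restrains transcription elongation, was at 361 FPKM there and at 5.24 to 14.5 FPKM in the others. The row of the MIR204 gene was listed at 0 in every library, which checks nothing, since poly(A) libraries do not measure the mature microRNA. Of 16 pigment epithelium markers, the keratins KRT8 and KRT18 were at 124 to 164 and 194 to 249 FPKM, and RLBP1, the retinal-binding protein of the visual cycle, at 2.57 to 5.66 FPKM. RPE65, the isomerase of that cycle, reached 0.029 FPKM at most, and TYR was listed at 0. The summed level of the 16 markers ran from 343 to 434 FPKM with miR-204-5p and from 355 to 399 FPKM with miR-NC. Nearly all of this sum was KRT8 and KRT18. The markers CDH1, CDH3, DCT, LRAT, RPE65, TTR, TYR and TYRP1 stayed under 0.5 FPKM in every library. Summed photoreceptor and neuron markers ran from 50.2 to 53.0 FPKM with miR-204-5p and from 12.9 to 42.1 FPKM with miR-NC, nearly all of it TUBB3, while 8 of those 10 genes, CRX and NRL among them, stayed under 0.5 FPKM in every library. Summed fibroblast markers ran from 1520 to 1701 FPKM with miR-204-5p and from 1420 to 1496 FPKM with miR-NC, mainly VIM. DCN and PDGFRA stayed under 0.5 FPKM. In replicate 3 of miR-204-5p, COL1A2 was at 0.948 FPKM, COL3A1 at 0.629 FPKM and LUM at 0.505 FPKM. The other libraries held at most 0.00441, 0.112 and 0.0357 FPKM of them. COL1A1 was also highest in that library, at 2.14 FPKM, while PDGFRB was lowest in it, at 0.989 FPKM. Summed endothelial and immune markers ran from 25.6 to 40.9 FPKM with miR-204-5p and from 29.8 to 39.1 FPKM with miR-NC, mainly CD68, and 8 of the 10 stayed under 0.5 FPKM. Their part in the results below was not tested. In bulk libraries such as these, fewer cells that use a gene and less of its RNA per cell cannot be told apart.

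MED29 is the tail subunit whose fly relative is the sex determination factor Intersex. It stood at 1.36, 12.7 and 9.81 FPKM in replicates 1, 2 and 3 of miR-204-5p, against 1.34, 1.26 and 1.45 FPKM in miR-NC. Replicates 2 and 3 of miR-204-5p were high, and replicate 1 lay among the controls, so the groups overlapped. The 2 high libraries were 6.78 to 10.1 times the miR-NC libraries, and replicate 1 was 0.941 to 1.08 times them. Within the complex MED29 ranked 3 and 7 of 33 by FPKM in replicates 2 and 3 of miR-204-5p, 27 in replicate 1, and 23 to 27 in miR-NC. Its share of the summed FPKM of all members was 7.74% and 6.21% in those high libraries, 0.794% in replicate 1 and 0.846% to 1.01% in miR-NC.

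The log2 difference of MED29 was 1.59 with a standard error of 0.62 (limma; miR-204-5p minus miR-NC; values as log2(FPKM + 1), as for all log2 differences here). It rested on the pair of high libraries and came to 2.37 when replicate 1 of miR-204-5p was left out, 1.11 when replicate 2 was and 1.28 when replicate 3 was. Taken at the length of the longest coding transcript of 3653 bases, the values correspond to about 107, 976 and 681 read pairs with miR-204-5p and to 108 to 110 with miR-NC. The FPKM does not say which of the 6 transcripts listed for MED29, from 546 to 3653 bases long, the reads came from. Among all 13151 genes tested, MED29 was the 1 gene (0.0076%) in which replicates 2 and 3 of miR-204-5p were both at least 2 times every other library, and it also met that at 4 times. This is the pattern for which the set was proposed, so the count is no support for it. Genes that reached 0.5 FPKM only in those 2 libraries had been removed by the filter and are not counted. In the authors' deposited table MED29 had a fold of 5.90 and a q of 0.0535. It was 1 of 194 genes marked as changed (0.32% of rows) and the only marked member. The mark did not need a q under 0.05, which 16 genes had and no member had. These entries rest on the same libraries that chose the set and add no test of MED29.

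MED29 lies at chr19:39391303-39400637 (GRCh38, plus strand). PAF1, a subunit of an elongation complex, starts 107 bases away on the other strand. PAF1 stood at 35.3, 33.9 and 35.7 FPKM with miR-204-5p, against 36.8, 34.2 and 43.6 FPKM with miR-NC. The groups of PAF1 overlapped, and none of the high libraries of MED29 was high in PAF1. SAMD4B, a relative of the fly RNA-binding repressor Smaug, on the far side of PAF1, stood between 4.21 and 4.53 FPKM with miR-204-5p and between 4.10 and 5.07 FPKM with miR-NC. ZFP36, a destabilizer of AU-rich mRNAs that begins 6175 bases past MED29 on the same strand, stood at 5.58, 3.39 and 3.89 FPKM with miR-204-5p, against 8.66, 14.9 and 6.26 FPKM with miR-NC. All miR-204-5p values of ZFP36 lay below all miR-NC values, with a log2 difference of -0.99 (95% limits -1.75 to -0.24), which was not called (limma, adjusted p = 1.00). The other neighbours, GMFG, PLEKHG2 and RPS16, overlapped between the groups, and none of the 6 had its highest values in the 2 libraries that were high for MED29.

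**Figure D1:**
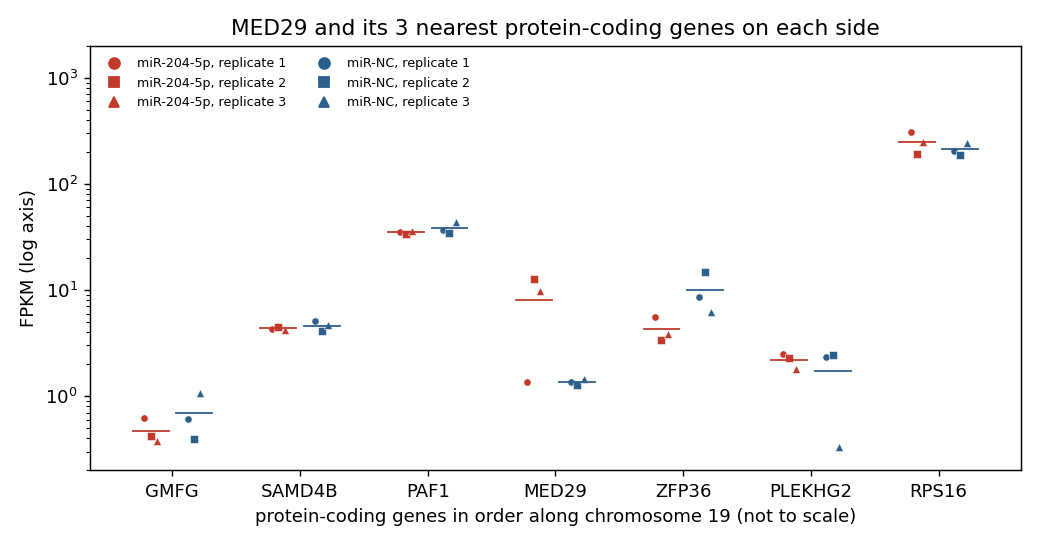
FPKM (log axis) of MED29 and the 3 nearest protein-coding genes on each side, with 1 point per library and a line at each group mean; miR-204-5p is red and left, miR-NC blue and right. MED29 is at 12.7 and 9.81 FPKM in replicates 2 and 3 of miR-204-5p and between 1.26 and 1.45 FPKM in the other 4 libraries, while PAF1 stays between 33.9 and 43.6 FPKM.

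Across the complex no member passed the test. Of 31 members tested, 0 had an adjusted p under 0.05, and so had 0 of 13151 genes (0%; limma, Benjamini-Hochberg). An unadjusted p under 0.05 was reached by 1 of the 30 members other than MED29, which was MED11 and was higher with miR-204-5p. Of all genes 2.08% reached that level, 1.16% higher and 0.92% lower with miR-204-5p. In 3 members (MED8, MED11 and MED7) all miR-204-5p values lay above all miR-NC values, against 3.77% of all genes, and in 0 members they lay below, against 2.17%. In either direction this makes 3 of 31 members, beside 5.95% of all genes. Positive log2 differences were found in 21 members and negative ones in 10, where 46.9% of all genes were positive. The median was 0.10 over the members, or 0.088 without MED29, and -0.016 over all genes tested. Without replicate 3 of miR-NC the median was -0.013, with 15 positive and 16 negative members, and the median over all genes was -0.072. The 95% limits of 29 of the 30 members other than MED29 included 0, with a median half-width of 0.51.

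**Figure D2:**
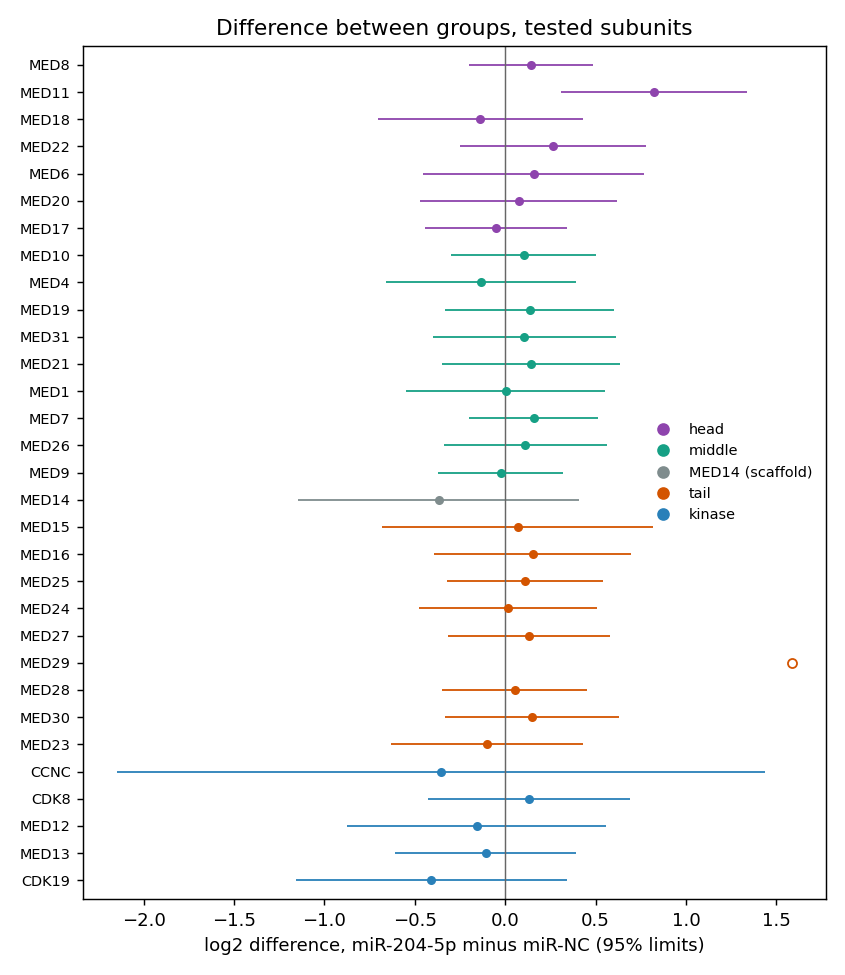
Difference in log2(FPKM + 1) between miR-204-5p and miR-NC (positive where miR-204-5p is higher) for the 31 members tested, with 95% limits from limma and colours by module. MED29, which chose the set, is an open point without limits at 1.59; the limits of MED11 lie above 0 and those of the other 29 include it.

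In the head module, the part that touches the polymerase, MED11 stood at 13.1, 8.60 and 12.0 FPKM with miR-204-5p, against 6.09, 4.69 and 6.82 FPKM with miR-NC. The lowest treated library was above the highest control. In means this was 11.2 ± 2.35 FPKM with miR-204-5p and 5.87 ± 1.08 FPKM with miR-NC (SD, n = 3 each). Its log2 difference was 0.83 (95% limits 0.31 to 1.34), which did not pass over all genes (limma, adjusted p = 1.00, and 0.661 to 1.00 over the alternatives). The authors' deposited table gave MED11 a fold of 1.91 and a q of 1 and did not mark it. The difference stayed between 0.70 and 0.99 when single libraries were left out. MED11 is a small subunit that pairs with MED22, and its gene ends within CXCL16 on the other strand, with which it shares 85 bases. CXCL16 stood at 1.45, 1.56 and 2.83 FPKM with miR-204-5p, against 2.08, 2.41 and 3.72 FPKM with miR-NC, with overlapping values, and was highest in replicate 3 of either group. The libraries marked strand, but no source used here says whether the counting kept it, so reads in those shared bases may belong to either gene. MED22, the partner of MED11 and the other member with an 8mer, averaged 6.38 ± 1.18 FPKM with miR-204-5p and 5.18 ± 1.20 FPKM with miR-NC (SD, n = 3 each), with overlapping values.

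MED8 had the highest mean of the head module. It stood at 13.3, 13.4 and 13.9 FPKM with miR-204-5p, against 12.2, 11.3 and 13.1 FPKM with miR-NC. Each treated value was above each control value, by little: the log2 difference was 0.14 (95% limits -0.20 to 0.49). MED8 was also the 1 member besides MED29 in which replicates 2 and 3 of miR-204-5p were the 2 highest libraries, by a narrow margin over replicate 1. The share of all genes with this order was not computed, so it is no result about MED8. MED17, a large subunit that organizes the head, was the lowest of it at 0.813, 0.721 and 0.547 FPKM with miR-204-5p, against 1.06, 0.786 and 0.457 FPKM with miR-NC. MED18, which forms a movable jaw with MED20 in yeast, was steady in miR-NC at 6.41 to 6.53 FPKM and ran from 3.80 to 7.15 FPKM with miR-204-5p. The remaining members were MED6, at 2.83 to 5.43 FPKM over the 6 libraries, and MED20, at 1.80 to 3.56 FPKM, which had log2 differences of 0.16 and 0.074 with overlapping values. Summed over its 7 genes, the head stood at 50.0, 38.7 and 45.4 FPKM with miR-204-5p, against 36.9, 32.8 and 40.2 FPKM with miR-NC, and the groups overlapped.

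In the middle module no subunit differed by more than 0.16 on the log2 scale, while MED14 was lower by 0.37 with limits that include 0. MED10, the most abundant of the middle, stood at 15.4, 12.7 and 12.2 FPKM with miR-204-5p, against 12.1, 11.2 and 14.0 FPKM with miR-NC, with overlapping values. MED9 was its lowest, at 1.33, 1.15 and 1.20 FPKM with miR-204-5p, against 1.23, 1.07 and 1.52 FPKM with miR-NC. MED7, which forms a hinge with MED21 in yeast, stood at 2.67, 2.38 and 2.56 FPKM with miR-204-5p, against 2.20, 2.28 and 2.04 FPKM with miR-NC. The groups of MED7 were apart by a narrow margin, with a log2 difference of 0.16 (95% limits -0.20 to 0.51). MED4 stood at 8.56, 9.36 and 6.09 FPKM with miR-204-5p, against 9.88, 9.79 and 6.89 FPKM with miR-NC, lowest in replicate 3 of either group. MED19 ran from 5.47 to 8.84 FPKM, MED31 from 3.38 to 6.06 FPKM and MED21 from 3.06 to 5.49 FPKM over the 6 libraries. Apart from MED7, the middle subunits had overlapping values and log2 differences from -0.13 (MED4) to 0.14 (MED21). Among these MED1, the docking subunit for nuclear receptors, had 0.0032 (95% limits -0.55 to 0.55), and MED26, which recruits elongation factors, had 0.11. MED14 stood at 1.60, 2.66 and 1.01 FPKM with miR-204-5p, against 3.32, 3.15 and 1.29 FPKM with miR-NC. Its log2 difference was -0.37 (95% limits -1.15 to 0.41), and it ran from -0.66 without replicate 3 of miR-NC to -0.16 without replicate 3 of miR-204-5p. Its lowest library was replicate 3 in either group.

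In the tail, MED15, a contact of the sterol regulators SREBP, had the highest mean of the whole complex. It stood at 18.3, 8.46 and 16.4 FPKM with miR-204-5p, against 16.8, 12.7 and 10.2 FPKM with miR-NC. MED23, a contact of the serum response factor partner ELK1, was the lowest of the tail at 0.927, 1.20 and 0.323 FPKM with miR-204-5p, against 1.02, 1.13 and 0.616 FPKM with miR-NC. Both overlapped between the groups. MED16 and MED25, which contacts the retinoic acid receptor and the viral activator VP16, followed MED15 in level, at 7.35 to 11.9 and 8.36 to 11.1 FPKM over the 6 libraries. MED24 and MED27 averaged 6.86 and 5.14 FPKM over the 6 libraries, and MED28 and MED30 were lower, at 2.42 to 3.33 and 0.983 to 1.92 FPKM. Apart from MED29, the tail subunits had log2 differences from -0.10 (MED23) to 0.15 (MED16 and MED30). The tail summed to 60.9, 56.6 and 64.0 FPKM with miR-204-5p, against 54.7, 44.9 and 50.1 FPKM with miR-NC, so the groups of this sum were apart. Without MED29 the sums were 59.5, 43.9 and 54.2 FPKM with miR-204-5p, against 53.4, 43.7 and 48.7 FPKM with miR-NC, and they overlapped. The separation of the tail thus rested on MED29.

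**Figure D3:**
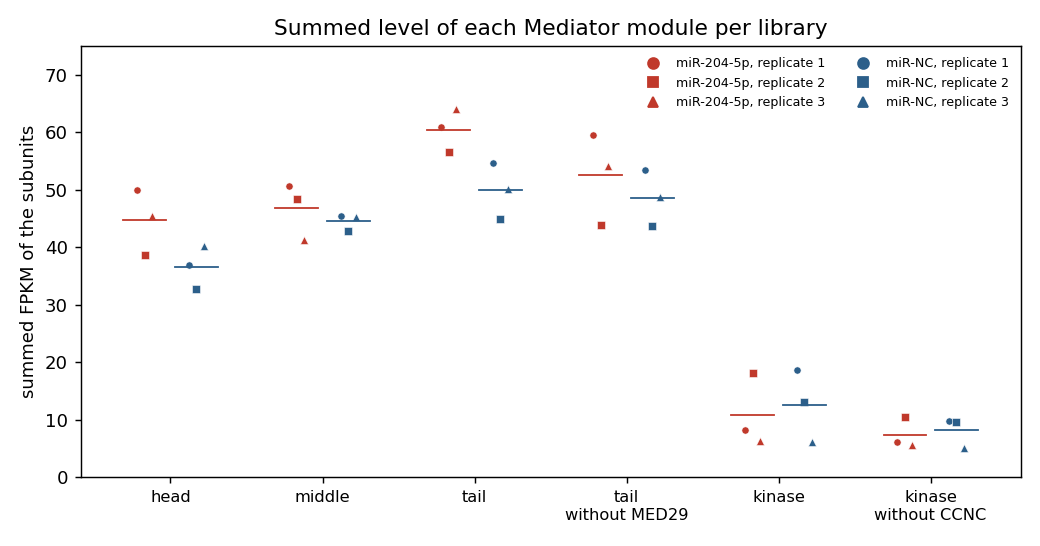
Summed FPKM of the subunits of each module per library, with lines at the group means; miR-204-5p is red and left, miR-NC blue and right. The tail is apart between the groups with MED29 and overlaps without it, and the kinase module runs from 6.10 to 18.6 FPKM across libraries of both groups.

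In proportion to its level, the kinase module varied more between libraries than the head, the middle or the tail. In FPKM its range was narrower than those of the head and the tail. Its summed FPKM ran from 6.31 to 18.2 with miR-204-5p and from 6.10 to 18.6 with miR-NC. Without cyclin C the sum ran from 5.73 to 10.5 FPKM with miR-204-5p and from 5.10 to 9.85 FPKM with miR-NC. Cyclin C, the partner that activates CDK8 and CDK19, stood at 2.04, 7.69 and 0.580 FPKM with miR-204-5p, against 8.80, 3.47 and 1.00 FPKM with miR-NC. That is a range of 15.2-fold inside overlapping groups, and its log2 difference of -0.36 had limits from -2.15 to 1.43. It came to -1.02 with replicate 2 of miR-204-5p left out and -0.93 with replicate 3 of miR-NC left out, and turned to 0.21 with either replicate 3 of miR-204-5p or replicate 1 of miR-NC left out. CDK19 stood at 0.0891, 1.41 and 0.614 FPKM with miR-204-5p, against 1.23, 1.67 and 0.671 FPKM with miR-NC. Replicate 1 of miR-204-5p was far below the other 5 libraries, and at the longest transcript it corresponds to about 12 read pairs. The log2 difference of CDK19 was -0.41 (95% limits -1.16 to 0.34). Leaving out replicate 2 of miR-204-5p gave -0.70, and leaving out replicate 1 gave -0.12. A pseudocount of 0.1 FPKM in place of 1 gave -1.05 (95% limits -2.89 to 0.79). MED29, CCNC and CDK19 were the 3 tested members in which the highest library was at least 5 times the lowest, and 21 members stayed under 2-fold. The median ratio of highest to lowest library was 1.82 over members and 1.96 over all genes tested that had no 0.

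Both kinases and both pairs of large paralogs were unequal in level. CDK8 stood at 2.87, 3.65 and 2.48 FPKM with miR-204-5p, against 3.52, 2.83 and 1.76 FPKM with miR-NC. In FPKM, a level per length, CDK8 was above CDK19 in each of the 6 libraries, by a median of 2.75-fold. The ratio was 32.2 in replicate 1 of miR-204-5p, where CDK19 was lowest, and 1.69 to 4.03 in the others. MED12, which activates the kinase, stood at 1.49, 2.94 and 1.09 FPKM with miR-204-5p, against 2.55, 2.56 and 1.25 FPKM with miR-NC. Its paralog MED12L was under 0.05 FPKM in every library, the lowest member of the complex. MED13, which links the kinase to the core, stood at 1.45, 2.10 and 1.31 FPKM with miR-204-5p, against 2.16, 2.13 and 1.23 FPKM with miR-NC, and exceeded MED13L 5.55 to 8.88 times. MED12L and MED13L were the 2 members below the filter. MED12 and MED13 overlapped between the groups, with log2 differences of -0.16 and -0.11.

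**Figure D4:**
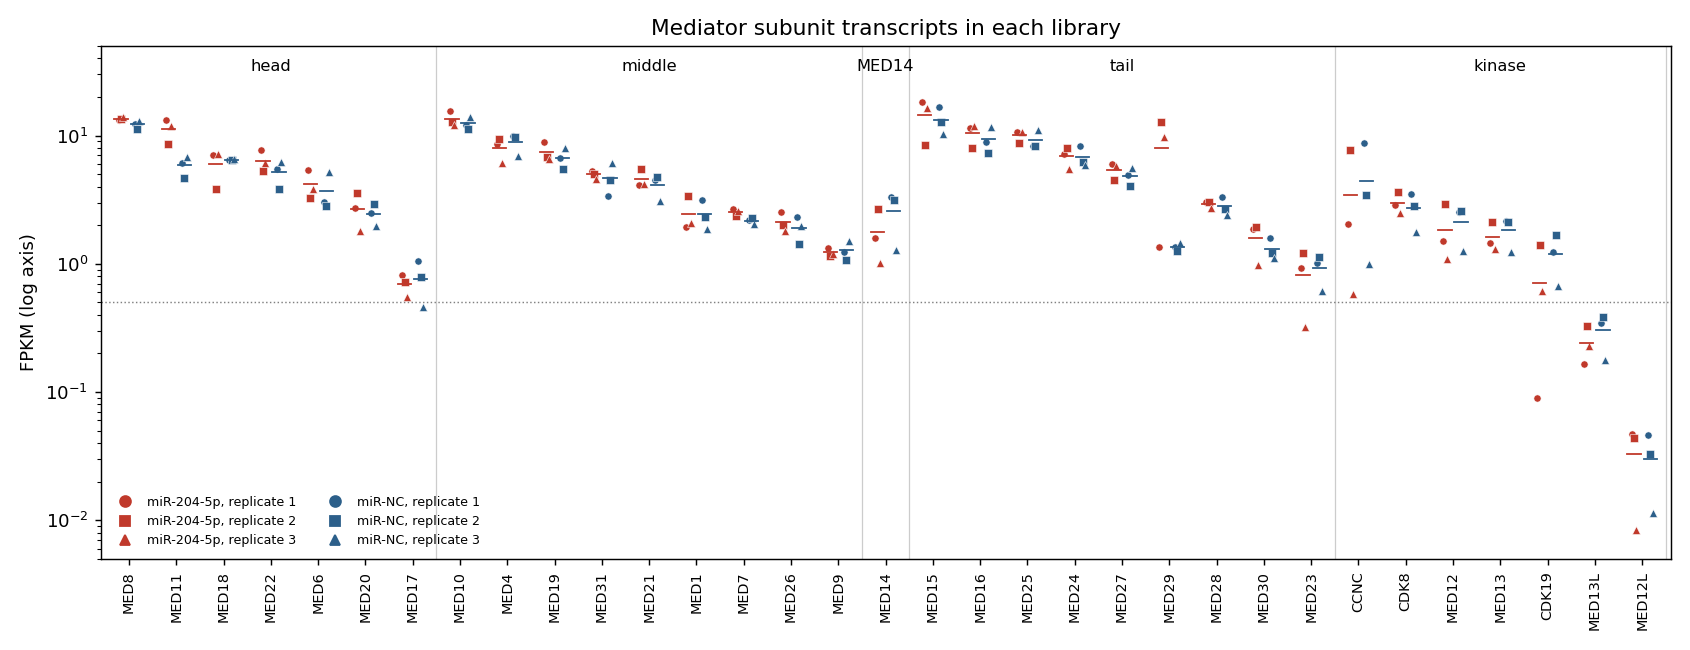
FPKM (log axis) of all 33 members, ordered by module and then by mean level, with 1 point per library and a line at each group mean; miR-204-5p is red and left, miR-NC blue and right. The dotted line is the filter value of 0.5 FPKM; the means of the 31 tested members run from 0.730 to 13.8 FPKM, and MED29 shows 2 high red points.

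The 5 tested members with an 8mer or 7mer-m8 printed above had 2 positive and 3 negative log2 differences and a median of -0.050, with MED29 (1.59) and MED22 (0.26) on the positive side and MED17 (-0.050), MED12 (-0.16) and CDK19 (-0.41) on the negative side. MED29 chose the set, and without it 1 was positive and 3 were negative. The 17 without a site of any class had 13 positive and 4 negative differences and a median of 0.11. Members with only matches of the other classes are in neither set. The same values for all genes with and without a site were not computed. Whether the sites lowered these members was therefore not tested.

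For most subunits replicates 2 and 3 differed more than the groups did. These replicates lay farthest apart within each group on the leading principal component. They were at 29.55 and -41.08 with miR-204-5p, and at 33.13 and -32.36 with miR-NC. Other pairs of replicates were not compared. In 26 of 31 members tested, the mean difference of replicate 3 minus replicate 2 over the groups was larger in size than the difference between the groups. The same share over all genes was not computed. Differences between single libraries scatter more than differences between group means, even when averaged over both groups. The count is therefore no result about Mediator. In 24 members (77.4%) the replicate difference had the same sign in both groups, near the 80.5% of all genes tested. All 5 tested kinase subunits were lower in replicate 3 than in replicate 2 in both groups. For CCNC the log2 difference was -2.46 with miR-204-5p and -1.16 with miR-NC, for MED14 -0.86 in each, and for MED12 -0.92 and -0.66. Of 7 head subunits, 5 were higher in replicate 3 in both groups. Over the 30 members without MED29, the replicate differences of both groups correlated at Pearson's r = 0.74, or 0.67 without CCNC as well, against 0.61 over all genes tested. These points share their libraries and are not independent. The 6 tested members with a coding sequence of at least 3000 bases, a limit chosen after the values were seen, were all lower in replicate 3 in both groups (MED1, MED12, MED13, MED14, MED23 and MED24), as were 9 of the 25 shorter ones. Without that limit, log2 coding length and the mean replicate difference correlated at Pearson's r = -0.31 over the 30 members without MED29, which share their libraries. Over all genes tested the median of the mean replicate difference was -0.14. The shares of all genes lower or higher in replicate 3 in both groups were not computed. The counts by module and by coding length are therefore not shown to be particular to Mediator. MED29 had opposite signs, with -0.34 in miR-204-5p and 0.11 in miR-NC.

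**Figure D5:**
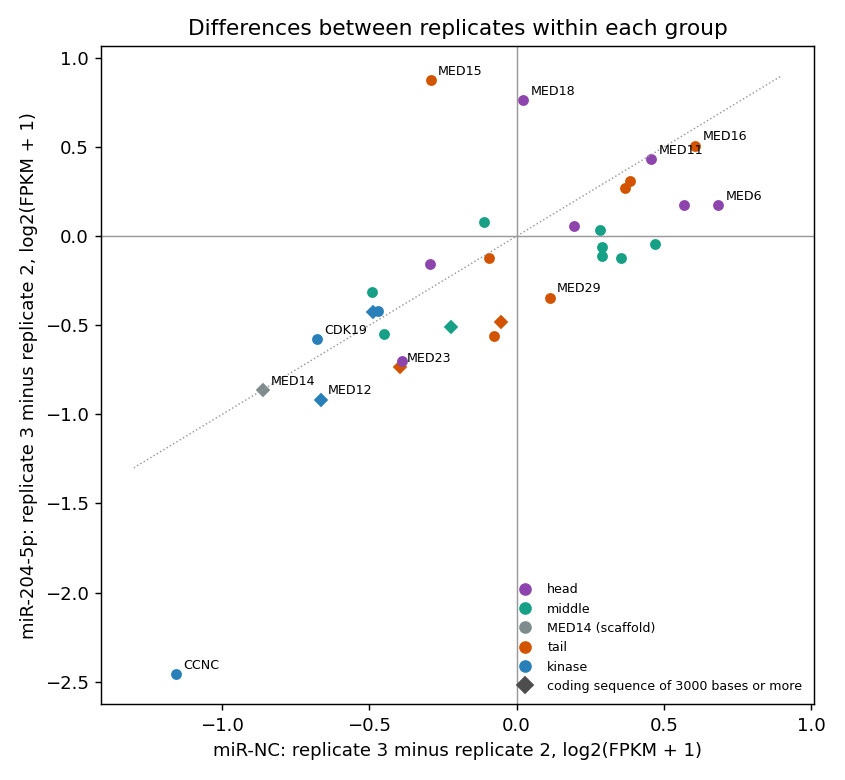
Replicate 3 minus replicate 2 on the log2(FPKM + 1) scale for the 31 members tested, in miR-NC (horizontal axis) and miR-204-5p (vertical axis), coloured by module, with diamonds for coding sequences of 3000 bases or more. CCNC is lowest in both groups at -1.16 and -2.46; the dotted line marks equal differences.

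No gene of the lists around Mediator passed the test either. Among 12 subunits of RNA polymerase II, 9 had positive and 3 negative log2 differences with a median of 0.14. POLR2A, the catalytic subunit, stood at 14.1, 19.4 and 12.2 FPKM with miR-204-5p, against 21.8, 17.5 and 15.4 FPKM with miR-NC, and the groups overlapped. Among 31 general transcription factors 14 were positive and 17 negative with a median of -0.013. Of 27 tested genes of elongation control 9 were positive and 18 negative (median -0.14), and of 20 partners of Mediator such as cohesin and nuclear receptors 5 were positive and 15 negative (median -0.072). SMC1A, a cohesin subunit, stood at 1.14, 2.89 and 0.845 FPKM with miR-204-5p, against 2.49, 4.94 and 0.851 FPKM with miR-NC, also overlapping. Of 14 tested immediate early genes 3 were positive and 11 negative (median -0.096). In these lists 0 genes passed the adjusted test, and 2 had an unadjusted p under 0.05 (limma), a level that 2.08% of all genes tested reached. One was ELL2, an elongation factor, at 6.18, 6.64 and 5.70 FPKM with miR-204-5p, against 9.33, 9.55 and 7.28 FPKM with miR-NC. The other was EGR1, a growth factor response gene that ELK1 and MED23 activate in mouse cells, at 7.77, 11.4 and 6.94 FPKM with miR-204-5p, against 14.9, 16.7 and 10.5 FPKM with miR-NC. All miR-204-5p values of ELL2 lay below those of miR-NC, and those of EGR1 overlapped. Among the other tested genes of these lists, NELFCD also lay below, while TAF11 and MYC lay above. Of all genes tested, 2.17% lay below and 3.77% above. For scale, the median over all genes tested was -0.016.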

How the data were processed

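Poly(A) RNA of 6 libraries was read as paired ends of 150 bases from strand-marked libraries, per the labels' protocols. The authors deposited FPKM per gene, with 0.0001 in the place of 0 (read as 0 here), and, for each gene, their own fold ratio, log2 ratio, p-value and q-value. The deposited log2 ratio equalled that of the mean FPKM within 0.01 in all 60612 rows. The submitters' processing notes name the build GRCh38 and list the tools StringTie 1.3.4d, HISAT2 2.0.4, DESeq2, edgeR and cutadapt 1.9 without their roles. Which annotation and which filters were used is not given here.

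FPKM are not counts, so log2(FPKM + 1) was fitted with limma 3.58.1 in R 4.3.3, with a trend of the variance on the mean and without covariates, for the 13151 genes with at least 0.5 FPKM in at least 3 libraries. Tests were two-sided and adjusted over all genes (Benjamini-Hochberg, 0.05). The log scale understates the change of low genes. The script was tested on simulated data. Depth was estimated from the most frequent product of FPKM and transcript length. Only 17.6% to 26.6% of low values lay within 0.01 steps of a multiple of 0.5 steps, so depth is rough and no counts were recovered. Since FPKM is relative, abundant RNA without a poly(A) tail in a library lowers every other value there.

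The 3' UTRs were rebuilt from GENCODE 29 (GRCh38), and the sense strand was searched for 4 seed match classes. Members were named by a rule: MED29, members whose groups do not overlap, the highest and lowest of each module, MED14 and the paralogs, and up to 2 genes per other list. Other genes were chosen after their values were seen. The libraries fall into 2 clusters by MED29, so its correlations with other members are not given. The members and lists were chosen with earlier results of these data known. Alternatives were another pseudocount, no filter, other scalings, a replicate block and leaving out each library. Python 3.11.15 was used.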

Additional observations from a re-analysis of the deposited data

How the results depend on the processing

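Leaving out single libraries gave 0 to 3 genes called over all genes, the 3 without miR-204-5p replicate 2, and 1 to 2 members other than MED29 at an unadjusted p under 0.05. Without miR-204-5p replicate 2 these were MED11 and CDK19 (limma, adjusted p = 0.678 for both); the cause was not tested. Members called stayed at 0 under every alternative run. The difference of MED29 ran from 1.11 to 2.37 with libraries left out and was 1.98 with a pseudocount of 0.1, which also moved CDK19 to -1.05. The median over members ran from -0.013 to 0.14. Of 330 values of the other 30 members under alternatives, 301 kept their direction, and the 29 that turned came from 17 members with a difference of at most 0.36 in size. The run without a filter and the replicate block leave each member's difference unchanged, so their values among the 330 could not turn. Genes at an unadjusted p under 0.05 numbered 273, and 731 of 29823 without a filter, 601 without replicate 3 of miR-NC, 753 without replicate 2 of miR-204-5p and 163 to 187 without each of the other 4 libraries.

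A replicate block in the fit left 0 genes and 0 members called. It cannot change a difference in this balanced design, so MED29 stayed at 1.59. The block gave MED11 an adjusted p = 0.661 (limma) and brought 941 genes under an unadjusted p of 0.05. Between libraries of the same number the deviations from the group means had correlations of 0.042 (replicate 1), 0.55 (replicate 2) and 0.52 (replicate 3). Between libraries of different numbers the correlations ran from -0.615 to 0.317. Replicates 2 and 3 were thus most like the library of their own number in the other group, and replicate 1 was not. The libraries share a number, and whether they were paired was not tested. FPKM without counts gives no interval from depth.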

Other observations

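The table also held 24 rows named after members that the rule leaves out. Of these, 21 were pseudogenes, 18 of them listed at 0 in every library, and the highest value of a pseudogene was 0.245 FPKM. The other 3 were the non-coding MED8-AS1, MED4-AS1 and MED14OS, at 0.512 FPKM at most.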
